A study of Mus musculus with 18 samples.

Results

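The transcriptional response of Apoe-/- macrophages to a high amount of oxidized low-density lipoprotein (oxLDL) was examined by comparing cells that received oxLDL at 60 µg/ml (oxLDL 60) with untreated cells. These are 6 of the 18 RNA-sequencing libraries of the series, 3 for each condition. The cells were bone marrow-derived macrophages (BMDM) of the C57BL6 background, grown from total marrow cells with M-CSF, and every library compared here carries the germline deletion of Apoe, so that no group with an intact Apoe gene enters. The series also holds Apoe-/- cells at oxLDL 10 µg/ml (oxLDL 10) and Apoe-/-/Treml4-/- double-knockout (DKO) cells under the same 3 conditions, with 3 libraries each, and these are used below only for contrast. The series lists 16 h of oxLDL, while the methods of the study give a longer time. A treatment label names PBS as the vehicle and also names LPS, which was not resolved, and the age and sex of the mice are not given in the labels. Levels are in RPKM (reads scaled to the transcript's length in kilobases and to the mapped reads of the library), and 12838 of the 18668 genes in the table reached 0.1 RPKM in at least 3 libraries and were tested.

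Macrophages take up oxLDL through scavenger receptors and break it down in lysosomes. The cholesterol that is set free is esterified and stored in lipid droplets, which gives the cell the foamy look known from atherosclerotic plaques. Cells full of sterol are known to switch off the SREBP2 pathway of cholesterol synthesis and to turn on the LXR receptors, which direct cholesterol out of the cell. The oxidized lipids also modify the sensor KEAP1 and thereby release NRF2, a transcription factor for antioxidant genes. Apoe encodes apolipoprotein E, a carrier that macrophages secrete to take up effluxed cholesterol, so these cells lack 1 of the usual acceptors.

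Apoe, the deleted gene, still gave 0.937, 1.87 and 1.15 RPKM in untreated replicates 1 to 3 and 1.15, 3.02 and 1.43 RPKM with oxLDL 60 (log2 fold change 0.41 ± 0.40, adjusted p = 0.48), was not called, and was highest in replicate 2 of both groups. Which part of the gene these reads cover cannot be read from the table, and with no intact Apoe library at hand the level is no check of the labels. The depth recovered from the table was 42.8 to 54.2 M reads per library for the 6 libraries, and 3 reads over 1 kb of transcript corresponded to 0.0554 to 0.0702 RPKM in them. The macrophage identity was checked with 7 markers, all of which were tested. Their summed level was 8614 to 11352 RPKM in untreated cells and 6423 to 8353 RPKM with oxLDL 60, and of the 7 genes Mertk was called higher and Lyz2, Adgre1 and Fcgr1 were called lower. Mertk was not called without treated replicate 2 or untreated replicate 1 (adjusted p = 0.086 and 0.094), and Adgre1 was under the fold limit without treated replicate 1 or 3 or untreated replicate 2 or 3. Markers of 10 other cell types were low in both conditions, with summed levels of at most 0.465 RPKM for T cells, 2.13 RPKM for B cells, 41.5 RPKM for neutrophils and 13.6 RPKM for stromal cells. In bulk RNA, fewer cells of a type and less RNA per cell cannot be told apart. Untreated replicate 1 stood apart, since the median ratio of its genes to their geometric mean over the libraries was 0.895, while that of the other 5 was 0.963 to 1.02. That library also held the highest level of Lars2, at 3648 RPKM against 798.6 and 52.5 RPKM in the other untreated libraries and 11.0 to 115 RPKM with oxLDL 60, and the ribosomal precursor Rn45s, at 6312 RPKM, was likewise highest there. Counts with and without it are given below. Replicate 2 of the Apoe-/- groups held Xist transcripts, at 12.5 RPKM untreated, 7.25 RPKM with oxLDL 10 and 8.59 RPKM with oxLDL 60, while the other Apoe-/- libraries held at most 0.0690 RPKM, and without replicate 2 in any Apoe-/- group 1668 genes were called.

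A gene was called when limma gave an adjusted p (Benjamini-Hochberg) under 0.05 and the fold change was at least 1.4. By this rule 1786 genes, or 13.9% of those tested, were called, with 915 higher (7.13%) and 871 lower (6.78%). These shares are the background for every list count below, and no list was tested as a set. The falls were the larger changes. At least 2-fold differences were found for 241 higher and 399 lower genes, at least 4-fold differences for 26 and 98, and at least 8-fold differences for 3 and 34. The 3 treated and the 3 untreated libraries did not overlap for 40.7% of all genes tested and for 1760 of the called genes. Which direction held more calls was not stable. Leaving out untreated replicate 1 gave 752 higher and 969 lower calls, leaving out treated replicate 3 gave 873 and 892, and rescaling each library by its median ratio gave 776 and 1016, with totals of 1721, 1765 and 1792. The median log2 fold change of all genes tested was 0.06. In what follows a fold change is given on the log2(RPKM + 0.1) scale with its standard error (SE), and an exact permutation test of a single gene could not go below p = 0.1 with 3 against 3 libraries, the value reached by every gene whose groups do not overlap.

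**Figure D1:**
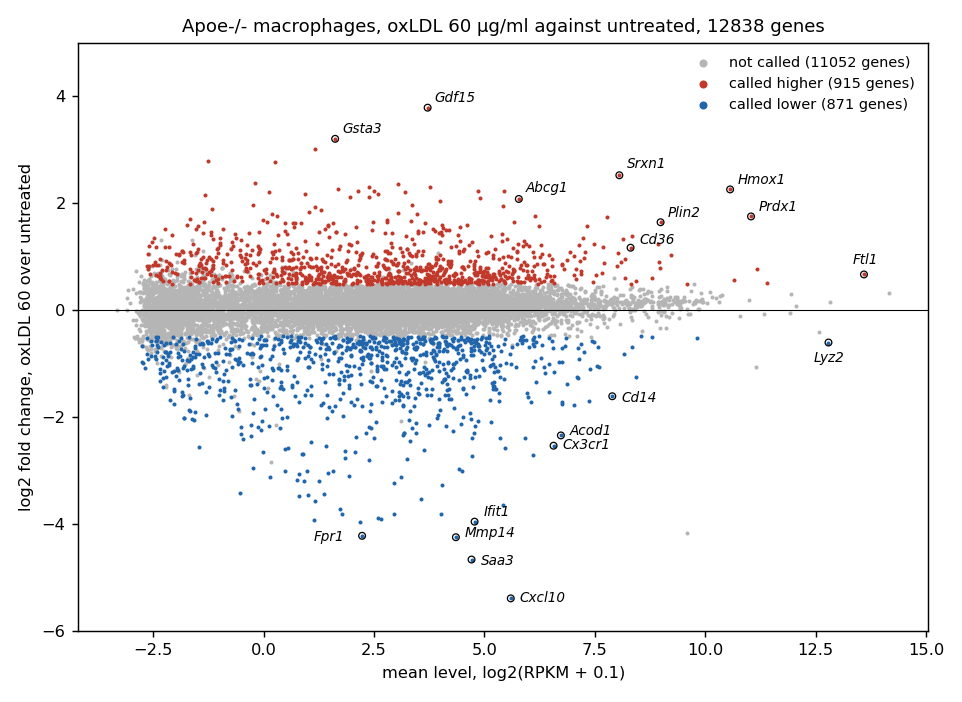
Log2 fold change of oxLDL 60 over untreated Apoe-/- macrophages (vertical axis) against the mean level of the gene over the 6 libraries, log2(RPKM + 0.1) (horizontal axis), 1 point for each of 12838 genes, with called genes in red (915 higher) and blue (871 lower). The points reach down to -5.39 (Cxcl10) and up to 3.78 (Gdf15), and the most abundant gene that was called is Ftl1.

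The largest changes in absolute level fell on a few abundant genes. Ftl1, the light chain of the iron store ferritin, rose from 8626, 10397 and 9714 RPKM in untreated replicates 1 to 3 to 15524, 15927 and 14052 RPKM with oxLDL 60 (log2 fold change 0.67 ± 0.12, adjusted p = 0.0005). The gain of 5589 RPKM was the largest of any called gene. The peroxidase Prdx1 gained 2273 RPKM, haem oxygenase Hmox1 gained 1981 RPKM, the lectin Lgals3 gained 1198 RPKM and the lysosomal protease Ctsd gained 937 RPKM. Lyz2, which digests bacterial walls, had the largest loss. It fell from 7153, 9478 and 9032 RPKM to 5298, 6691 and 4875 RPKM (log2 fold change -0.61 ± 0.19, adjusted p = 0.025), and the groups did not overlap, but the call was lost when single libraries were left out, for example without treated replicate 3 (adjusted p = 0.094) or untreated replicate 2 (adjusted p = 0.088). The next losses were the cytoskeletal actin Actg1, the chemokine Ccl9 and the LPS co-receptor Cd14. Actg1 was under the fold limit without treated replicate 2, and Ftl1 was not called when no filter on low genes was set (adjusted p = 0.21). Ftl1, Prdx1, Lgals3, Ccl9 and Actg1 were named after their values were seen.

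NRF2 targets had the highest share of rising members among the 41 lists. NRF2 binds antioxidant response elements and drives the enzymes that make glutathione, reduce peroxides, supply NADPH and degrade haem. Of 34 tested NRF2 targets, 26 rose and none fell, against 7.13% and 6.78% of all genes tested, and the median log2 fold change was 1.11. The groups did not overlap for 32 of the 34 (40.7% of all genes tested). Nfe2l2, which encodes NRF2 itself, was not among the calls and stood at 64.8 ± 10.9 RPKM untreated and 55.1 ± 4.73 RPKM with oxLDL 60 (mean ± SD, n = 3, log2 fold change -0.22 ± 0.11, adjusted p = 0.13).

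Several genes of peroxide reduction and haem breakdown rose to high levels. Srxn1, sulfiredoxin, which repairs over-oxidized peroxiredoxins, went from 74.8, 86.3 and 75.8 RPKM to 473, 439.7 and 445 RPKM, a ratio of means of 5.73 (log2 fold change 2.52 ± 0.11, adjusted p = 7.4e-11). Prdx1, a substrate of that enzyme, went from 868, 1037 and 991 RPKM to 3325, 3283 and 3107 RPKM (log2 fold change 1.75 ± 0.10, adjusted p = 2.1e-09). In both genes each treated library stood well above every untreated one, and the spread within a condition was small. Hmox1, which opens the haem ring, rose from 514, 582 and 472 RPKM to 2821, 2133 and 2557 RPKM (log2 fold change 2.26 ± 0.15, adjusted p = 6.3e-09), with replicate 2 the lowest of the treated libraries. Nqo1, a quinone reductase, rose from 9.14, 11.3 and 10.0 RPKM to 48.9, 46.1 and 47.5 RPKM (log2 fold change 2.22 ± 0.10, adjusted p = 1.2e-10).

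Genes of glutathione supply rose from the import of cystine to the final synthesis step. Slc7a11, the cystine importer, rose from 4.07, 6.93 and 3.61 RPKM to 15.3, 15.5 and 14.4 RPKM (log2 fold change 1.67 ± 0.18, adjusted p = 2.2e-06). The catalytic subunit Gclc and the modifier subunit Gclm of glutamate-cysteine ligase had log2 fold changes of 1.94 ± 0.08 and 1.73 ± 0.07, and Gclm went from 96.6, 106 and 102 RPKM to 348, 323 and 340.4 RPKM. Glutathione synthetase (Gss) and glutathione reductase (Gsr) were also called higher. Gsta3, a glutathione transferase, was low before treatment and rose from 0.554, 0.517 and 0.433 RPKM to 5.99, 4.67 and 5.67 RPKM (log2 fold change 3.20 ± 0.32, adjusted p = 7.4e-07). Of the enzymes that supply NADPH, Me1 and Pgd were called and G6pdx was not, with a log2 fold change of 0.24. In the branch of the pentose phosphate pathway that makes no NADPH, Taldo1 was called and Tkt was not (0.22). Gclc, Gclm, Prdx1 and Slc7a11 are list members that were named after their values were seen.

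The promoters of several members are shown because they hold the short motifs that these transcription factors are known to bind. Motifs were searched on both strands in RefSeq promoters (250 bases before to 50 after the transcription start). Of the tested genes 10153 had at least 1 such promoter, and a gene was counted when any of its promoters held a match. TGACNNNGC, the core of the antioxidant response element (ARE), was present in 12 of the 28 NRF2 targets with a promoter (42.9%), against 16.9% of all tested genes with one, 22.4% of genes called higher and 15.8% of genes called lower. Counted by promoter and not by gene, the share over all 32851 promoters of the table was 12.4%. The 250 bases before the start of Gclm (chr3:122245307-122245556, + strand) and Prdx1 (chr4:116685349-116685598, + strand) are given 5′ to 3′ on the gene's strand, build GRCm38.p6, with the ARE core in capitals. In Prdx1 and Gclm the match lies at nearly the same distance, 133 to 125 and 134 to 126 bases before the start, and in both it reads on the strand opposite to the gene.
Gclm: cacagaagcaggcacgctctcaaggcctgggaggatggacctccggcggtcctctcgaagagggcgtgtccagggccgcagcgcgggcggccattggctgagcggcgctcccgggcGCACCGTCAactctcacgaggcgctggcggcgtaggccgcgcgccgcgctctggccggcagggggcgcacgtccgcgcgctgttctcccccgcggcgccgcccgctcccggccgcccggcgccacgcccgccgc
Prdx1: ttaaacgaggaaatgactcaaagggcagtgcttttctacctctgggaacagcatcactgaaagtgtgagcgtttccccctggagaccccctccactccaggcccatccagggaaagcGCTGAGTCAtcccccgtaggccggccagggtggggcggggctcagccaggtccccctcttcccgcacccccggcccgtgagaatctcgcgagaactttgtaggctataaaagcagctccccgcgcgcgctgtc

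The integrated stress response rose as well. In this pathway a kinase that senses amino acid shortage, haem lack or misfolded protein blocks general translation and favours ATF4, which drives amino acid synthesis and the factor CHOP. Of 27 tested members, 17 rose and none fell, against 7.13% and 6.78% of all genes tested, and the median log2 fold change was 0.71. Gdf15, a stress-induced hormone that suppresses appetite, had the largest rise of all genes tested. It went from 1.70, 1.51 and 1.72 RPKM to 28.1, 18.0 and 27.0 RPKM (log2 fold change 3.78 ± 0.44, adjusted p = 4.5e-06), with treated replicate 2 the lowest. Trib3, a pseudokinase that restrains the pathway, rose from 2.22, 1.87 and 2.08 RPKM to 10.7, 8.06 and 10.4 RPKM (log2 fold change 2.18 ± 0.30, adjusted p = 2.9e-05). Chac1, which breaks down glutathione, rose from 1.08, 0.560 and 0.902 RPKM to 3.67, 2.66 and 4.02 RPKM (log2 fold change 1.93 ± 0.31, adjusted p = 0.00012). Ddit3, which encodes CHOP, rose from 11.1, 12.7 and 13.2 RPKM to 31.9, 26.9 and 26.4 RPKM (log2 fold change 1.20 ± 0.23, adjusted p = 0.00063). In all 4 genes the lowest treated library was above the highest untreated one. The asparagine synthetase Asns, the serine synthesis enzymes Phgdh, Psat1 and Psph and the tRNA synthetases Aars, Nars and Sars were called higher too.

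Chaperones of the endoplasmic reticulum changed too little for most to be called. Of 21 tested chaperones and unfolded protein response genes, 1 was called higher (7.13% of all genes tested) and none lower (6.78%). The median was 0.17, against 0.06 for all genes tested. In 11 of the 21 every treated library was above every untreated one, as in 3314 of all 12838 genes tested. In none of the 21 was every treated library below. Hspa5, the main chaperone of that compartment, stood at 209, 229 and 247 RPKM and 258, 259 and 252 RPKM (log2 fold change 0.17 ± 0.06, adjusted p = 0.054), with a treated minimum above the untreated maximum but a fold change under the limit. Calr stood at 320.4, 347 and 365 RPKM and 370.2, 363 and 339 RPKM (log2 fold change 0.06 ± 0.06, adjusted p = 0.56), and the groups overlapped. Among 16 cytosolic heat shock genes, with a median of 0.12, the 1 called gene was the co-chaperone Dnajb4, which rose from 5.26, 5.78 and 6.16 RPKM to 11.6, 9.94 and 10.3 RPKM (log2 fold change 0.88 ± 0.09, adjusted p = 1.7e-06), while Hspa8 and Hsp90ab1 had log2 fold changes of 0.19 and 0.10. The 1 chaperone call, Dnajb9 (log2 fold change 0.54 ± 0.12, adjusted p = 0.0033), was lost without treated replicate 2 or untreated replicate 1.

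The element bound by ATF4 together with C/EBP factors, with the core TGATGNAA (CARE), was found in 7 of 25 stress response genes with a promoter (28%), against 2.85% of tested genes. It was about as frequent among genes called higher (5.14%) as among genes called lower (4.98%). Slc7a11, which belongs to the NRF2 list and is also a known target of ATF4, holds 2 such cores in opposite orientations, 66 to 59 and 47 to 40 bases before its start (chr3:50443614-50443863, - strand). Its promoter is shown with both in capitals.
Slc7a11: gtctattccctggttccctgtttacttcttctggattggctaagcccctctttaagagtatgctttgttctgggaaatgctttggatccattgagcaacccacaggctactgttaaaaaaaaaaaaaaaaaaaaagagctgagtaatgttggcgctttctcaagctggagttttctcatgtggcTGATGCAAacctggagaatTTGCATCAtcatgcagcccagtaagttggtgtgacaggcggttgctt

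Lipid storage and lysosomal genes rose with smaller fold changes. Of 18 tested genes of lipid droplets and lipolysis, 9 rose and 2 fell, with a median of 0.53. Plin2, which coats lipid droplets, went from 238, 245 and 256 RPKM to 766, 799 and 743 RPKM (log2 fold change 1.64 ± 0.12, adjusted p = 1.8e-08), and the treated libraries lay close to each other. Hilpda, an inhibitor of droplet lipolysis, rose from 3.93, 4.45 and 3.86 RPKM to 16.3, 17.4 and 14.8 RPKM (log2 fold change 1.96 ± 0.18, adjusted p = 2.8e-07). The fatty acid carrier Fabp4 rose from 6.11, 5.94 and 5.98 RPKM to 18.0, 21.7 and 17.0 RPKM (log2 fold change 1.63 ± 0.26, adjusted p = 0.00012). Enzymes at both ends of the cholesterol ester cycle were called, the esterifying Soat1 (log2 fold change 0.52 ± 0.08) and the ester hydrolase Nceh1 (0.96 ± 0.08). Those that fell were Lipe, the hormone-sensitive lipase, and Lpl, the secreted lipoprotein lipase, which went from 325, 354 and 409 RPKM to 226, 199.8 and 192 RPKM (log2 fold change -0.81 ± 0.15, adjusted p = 0.00058). The call of Soat1 was lost without untreated replicate 1 and without treated replicate 2.

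The lysosomal list had 11 of 34 tested members higher and 1 lower, with a median of 0.37. Lipa, the acid lipase that frees cholesterol from LDL, rose from 350.1, 377 and 383 RPKM to 649.6, 638 and 631 RPKM (log2 fold change 0.79 ± 0.08, adjusted p = 8.9e-07). Gla, an alpha-galactosidase, rose from 43.8, 51.5 and 54.6 RPKM to 82.4, 96.2 and 85.8 RPKM (log2 fold change 0.82 ± 0.10, adjusted p = 1.1e-05). The proton pump subunit Atp6v1c1 rose from 78.3, 83.8 and 88.1 RPKM to 143, 141 and 139 RPKM (log2 fold change 0.76 ± 0.11, adjusted p = 4.3e-05). Thus enzymes and pump subunits rose together, by less than 2-fold in each of these 3. Mitf, a transcription factor of lysosomal genes, was the member that fell (log2 fold change -0.66 ± 0.13, adjusted p = 0.00091), and Tfeb was not called, with a log2 fold change of 0.06. Among 19 genes known from lipid-associated macrophages 10 rose and 1 fell, with a median of 0.51. Of these, Mmp12, an elastase, went from 68.6, 107 and 69.4 RPKM to 234, 278 and 202 RPKM (log2 fold change 1.56 ± 0.51, adjusted p = 0.027), but was no longer called when any of 4 single libraries was left out, with adjusted p of 0.064 to 0.087. Trem2, a lipid-sensing receptor, rose from 306, 389.6 and 365 RPKM to 528, 553 and 512 RPKM (log2 fold change 0.59 ± 0.09, adjusted p = 7.4e-05).

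Of 17 tested PPAR targets and oxidation enzymes 5 rose and none fell, with a median of 0.34. Cpt1a, which admits long-chain fatty acids to the mitochondrion, rose from 19.3, 20.8 and 23.1 RPKM to 40.3, 46.7 and 45.1 RPKM (log2 fold change 1.06 ± 0.07, adjusted p = 1.3e-08). Angptl4, a secreted inhibitor of lipoprotein lipase, rose from 1.54, 0.887 and 1.48 RPKM to 3.83, 4.33 and 3.85 RPKM (log2 fold change 1.58 ± 0.18, adjusted p = 2.8e-06). The receptor Ppard rose from 1.24, 1.37 and 1.24 RPKM to 3.11, 2.78 and 3.58 RPKM (log2 fold change 1.23 ± 0.17, adjusted p = 3.4e-05). The oxidation enzymes Acadm, Hadha, Cpt2 and Acadvl were not called, with log2 fold changes of 0.01, 0.04, 0.18 and 0.21. Of 14 genes of fatty acid synthesis and desaturation, 2 rose and 5 fell, with a median of -0.12. Fasn, the fatty acid synthase, fell from 12.9, 11.3 and 12.5 RPKM to 4.92, 3.82 and 5.18 RPKM (log2 fold change -1.39 ± 0.14, adjusted p = 7.4e-07), and the elongase Elovl6 and the desaturase Fads2 fell with log2 fold changes of -1.38 ± 0.14 and -1.29 ± 0.18. The exceptions were Acss2, which activates acetate (1.63 ± 0.18), and the desaturase Scd2, which went from 4.36, 4.60 and 8.07 RPKM to 9.48, 13.3 and 12.5 RPKM (log2 fold change 1.08 ± 0.18, adjusted p = 0.0002).

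**Figure D2:**
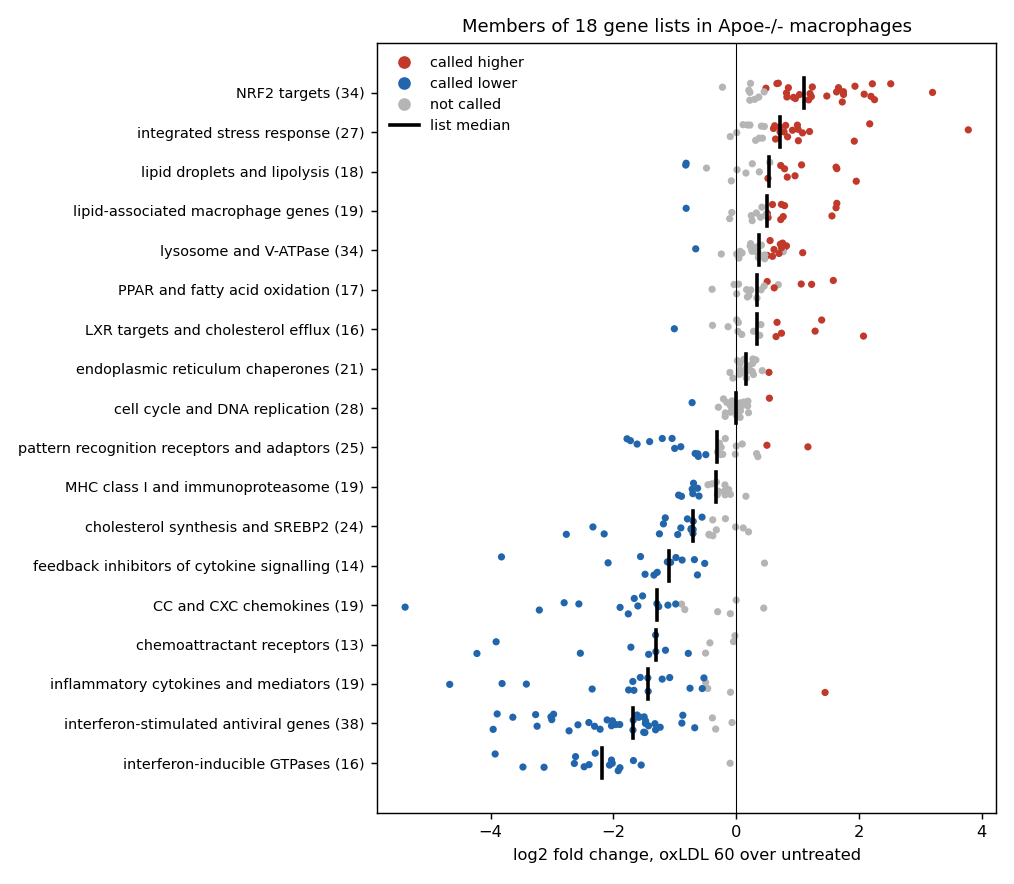
Log2 fold change of oxLDL 60 over untreated for each tested member (points) of 18 of the gene lists, with the number tested in brackets, called members in colour and the list median as a black bar. Medians run from 1.11 for NRF2 targets to -2.18 for interferon-inducible GTPases, and the median of all genes tested is 0.06.

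Sterol handling changed on both sides of the balance. Of 16 tested LXR targets and efflux genes 6 rose and 1 fell, with a median of 0.33. Abcg1, an exporter of cholesterol to HDL, rose from 12.6, 26.9 and 26.0 RPKM to 79.3, 96.4 and 87.6 RPKM (log2 fold change 2.08 ± 0.24, adjusted p = 3.9e-06). Abca1, the exporter to lipid-poor apolipoproteins, rose from 6.40, 19.6 and 14.3 RPKM to 24.6, 34.6 and 31.2 RPKM (log2 fold change 1.29 ± 0.32, adjusted p = 0.0052), and its untreated libraries were spread over 3-fold, with replicate 1 the lowest. Mylip, a ubiquitin ligase, rose from 8.73, 14.0 and 12.6 RPKM to 28.1, 32.4 and 31.2 RPKM (log2 fold change 1.39 ± 0.15, adjusted p = 1.6e-06). The member that fell was Nr1h3, which encodes LXR alpha itself, from 19.4, 32.7 and 26.0 RPKM to 12.4, 13.9 and 11.7 RPKM (log2 fold change -1.01 ± 0.16, adjusted p = 0.00011), so the receptor gene and its best known targets moved in opposite directions. Srebf1, another target, was not called (log2 fold change 0.09).

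In the SREBP2 pathway no member rose and 15 of 24 fell, with a median of -0.70. The falls were unequal along the pathway. Idi1, an isoprenoid isomerase of the early pathway, fell from 15.2, 11.3 and 18.0 RPKM to 3.02, 2.74 and 2.68 RPKM (log2 fold change -2.33 ± 0.15, adjusted p = 5.7e-09). Srebf2, the factor itself, fell from 15.3, 15.0 and 17.4 RPKM to 6.33, 6.78 and 7.74 RPKM (log2 fold change -1.18 ± 0.11, adjusted p = 2.6e-07). Each of these had its 3 treated libraries below the lowest untreated one. Hmgcs1, an enzyme of the early pathway, fell from 12.0, 9.63 and 13.4 RPKM to 6.77, 7.25 and 6.73 RPKM (log2 fold change -0.73 ± 0.12, adjusted p = 0.00019). The core TCACNCCAC of the sterol regulatory element (SRE) was found in the promoter of 1 of 17 members (5.88%), against 1.39% of tested genes. That member was Hmgcs1 (chr13:119690101-119690350, + strand), and its match, in capitals below, lies 137 to 129 bases before the start. Srebf2 and Hmgcs1 were named after their values were seen.
Hmgcs1: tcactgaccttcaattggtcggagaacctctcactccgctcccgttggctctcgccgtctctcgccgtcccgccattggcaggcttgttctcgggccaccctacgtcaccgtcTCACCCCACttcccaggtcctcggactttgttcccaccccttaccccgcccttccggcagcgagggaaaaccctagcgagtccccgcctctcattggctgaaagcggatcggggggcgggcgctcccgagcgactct

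Of 9 tested genes of oxysterol metabolism 2 rose and 2 fell, with a median of 0.02, and 1 rose without untreated replicate 1 or treated replicate 2, where Soat1 was lost. Ch25h, which makes 25-hydroxycholesterol and is also induced by interferon, fell from 31.2, 36.3 and 23.2 RPKM to 2.61, 2.08 and 1.49 RPKM (log2 fold change -3.82 ± 0.20, adjusted p = 7.8e-10). Gpr183, a receptor for its products, fell from 10.2, 11.1 and 11.7 RPKM to 6.72, 6.04 and 6.38 RPKM (log2 fold change -0.78 ± 0.08, adjusted p = 1.6e-06). Hsd3b7, an enzyme of oxysterol breakdown, rose from 21.1, 26.5 and 25.1 RPKM to 50.1, 51.4 and 45.9 RPKM (log2 fold change 1.02 ± 0.08, adjusted p = 7.6e-08). Ch25h and Hsd3b7 thus moved in opposite directions, while Cyp27a1, another member of the list, was not called (log2 fold change 0.18).

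Receptors for modified LDL did not change as 1 group. Of 14 tested scavenger receptors 3 rose and 5 fell, with a median of -0.13. Cd36, the main receptor for oxLDL, rose from 174, 198 and 215 RPKM to 419, 478 and 419 RPKM (log2 fold change 1.17 ± 0.14, adjusted p = 9.5e-06), and Cd5l and Scarb2 were also called higher. Marco and Msr1, both class A receptors that also bind bacteria, were called lower, with log2 fold changes of -1.96 and -0.91. Olr1, the lectin-like oxLDL receptor, was low and fell from 1.10, 1.94 and 1.43 RPKM to 0.30, 0.429 and 0.275 RPKM (log2 fold change -1.86 ± 0.20, adjusted p = 1.5e-06). Cxcl16, a membrane-bound scavenger receptor and chemokine, fell from 193, 254 and 237 RPKM to 105, 110.2 and 99.8 RPKM (log2 fold change -1.11 ± 0.10, adjusted p = 1.8e-07).

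**Figure D3:**
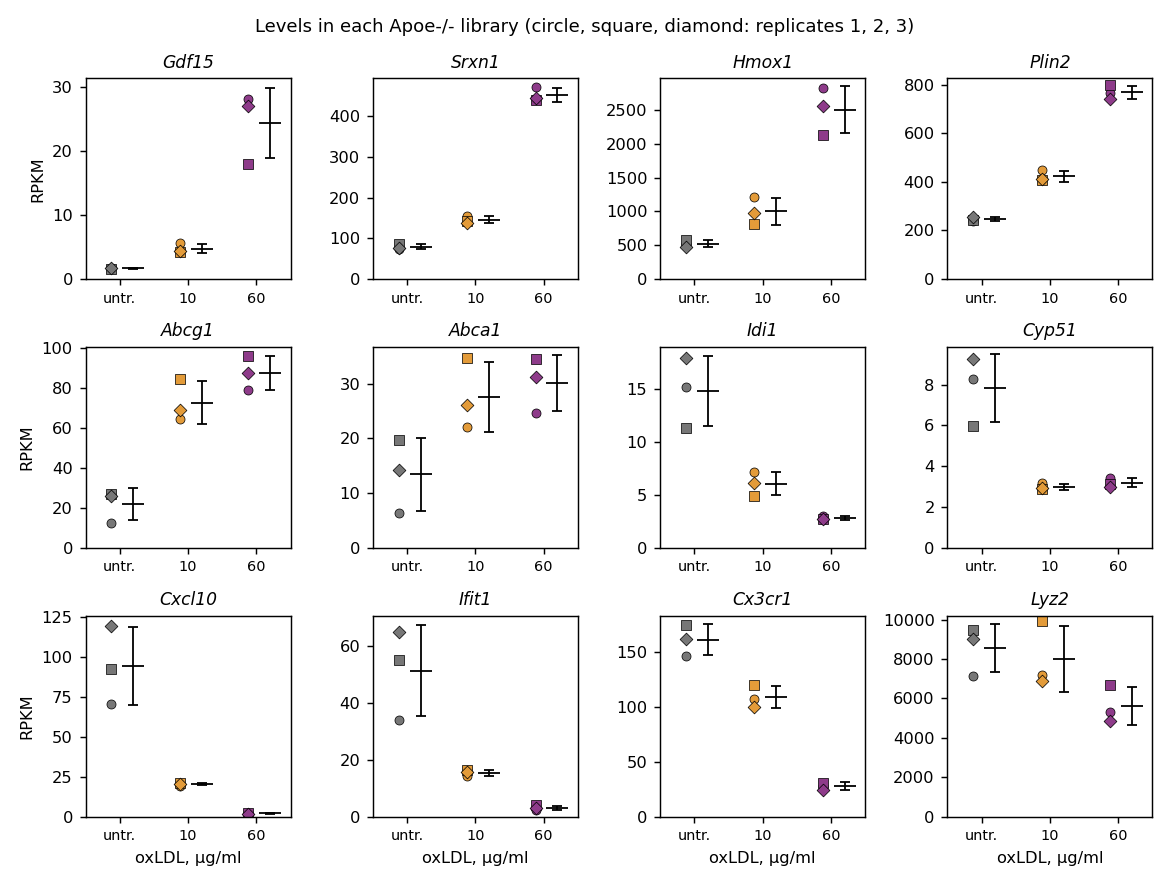
Level in RPKM (vertical axes, from 0) of 12 genes in each Apoe-/- library at 0, 10 and 60 µg/ml oxLDL (horizontal axes), with the mean and SD of 3 libraries beside the points. Cxcl10 and Ifit1 lie lower at 60 than at 10 µg/ml, Cyp51 lies between 2.91 and 3.42 RPKM at both amounts, and Gdf15, Srxn1 and Hmox1 lie higher at 60 than at 10 µg/ml.

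The lists of interferon-inducible GTPases and antiviral genes had the lowest medians of the 41 lists. Type I interferons act through STAT and IRF factors, which bind interferon-stimulated response elements (ISRE) and turn on antiviral effectors. Of 38 tested antiviral genes 35 fell and none rose, and the median log2 fold change was -1.68. Ifit1, which binds viral RNA, fell from 33.9, 55.2 and 65.2 RPKM to 2.38, 3.95 and 3.15 RPKM (log2 fold change -3.96 ± 0.29, adjusted p = 2.1e-08), and untreated replicate 1 was the lowest of its group. Cmpk2, a nucleotide kinase next to viperin, fell from 21.1, 29.2 and 38.8 RPKM to 2.50, 3.25 and 3.01 RPKM (log2 fold change -3.27 ± 0.19, adjusted p = 2.1e-09). Isg15, a ubiquitin-like modifier, fell from 32.2, 46.2 and 55.1 RPKM to 6.74, 8.89 and 9.03 RPKM (log2 fold change -2.40 ± 0.18, adjusted p = 2.5e-08). The treated libraries of these 3 genes held between 2.38 and 9.03 RPKM, less than any untreated library. Without untreated replicate 1 the lists of antiviral genes and of GTPases had 36 and 15 members lower. Those not called were Ifi27l2a, Ifitm3 and Bst2, with log2 fold changes of -0.07 to -0.39.

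Of 16 tested interferon-inducible GTPases, which attack the vacuoles of intracellular pathogens, 15 fell, with a median of -2.18. Iigp1 fell from 2.48, 4.85 and 4.77 RPKM to 0.143, 0.275 and 0.0942 RPKM (log2 fold change -3.93 ± 0.34, adjusted p = 1.6e-07). Gbp5 fell from 2.09, 3.38 and 3.78 RPKM to 0.134, 0.191 and 0.217 RPKM (log2 fold change -3.47 ± 0.23, adjusted p = 7.4e-09). After treatment both were at 0.0942 to 0.275 RPKM, a range in which the added 0.1 RPKM makes the fold change understate the ratio of the levels. Tgtp2 fell from 9.78, 15.1 and 21.4 RPKM to 1.34, 1.87 and 1.60 RPKM (log2 fold change -3.13 ± 0.22, adjusted p = 1.4e-08). Among the transcription factors of these pathways, 7 of 15 IRF and STAT genes fell and none rose, with a median of -0.33. Irf1 fell from 17.4, 29.3 and 27.9 RPKM to 5.60, 7.84 and 6.46 RPKM (log2 fold change -1.87 ± 0.22, adjusted p = 4.1e-06), and Stat2, Irf7 and Irf9 were called lower with log2 fold changes of -0.88 to -1.59, whereas Irf3 and Stat6 were not called (-0.05 and 0.01).

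The ISRE core GAAANNGAAA was present in 14 of 27 antiviral genes with a promoter (51.9%) and in 9 of 10 GTPases (90%), against 3.95% of tested genes. Among all genes called lower the share was 12.4%, and among those called higher it was 2.64%. Ifit1 (chr19:34640639-34640888, + strand) holds a pair of cores 104 to 95 and 85 to 76 bases before its start. Isg15 (chr4:156200819-156201068, - strand) holds 3 that overlap each other, at 78 to 69, 72 to 63 and 66 to 57 bases, printed as a single run in capitals. Cxcl10 (chr5:92348890-92349139, - strand) holds 1 at 213 to 204 bases. A match of letters is a description and does not show binding.
Ifit1: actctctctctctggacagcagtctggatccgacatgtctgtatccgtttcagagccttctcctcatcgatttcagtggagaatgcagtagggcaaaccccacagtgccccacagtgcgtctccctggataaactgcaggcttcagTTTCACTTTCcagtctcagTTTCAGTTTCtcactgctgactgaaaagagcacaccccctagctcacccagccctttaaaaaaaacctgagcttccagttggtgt
Isg15: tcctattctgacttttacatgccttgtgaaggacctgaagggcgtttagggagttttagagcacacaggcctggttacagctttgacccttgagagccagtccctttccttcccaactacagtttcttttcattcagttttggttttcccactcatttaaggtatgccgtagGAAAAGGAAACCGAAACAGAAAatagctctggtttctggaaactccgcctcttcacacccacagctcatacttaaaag
Cxcl10: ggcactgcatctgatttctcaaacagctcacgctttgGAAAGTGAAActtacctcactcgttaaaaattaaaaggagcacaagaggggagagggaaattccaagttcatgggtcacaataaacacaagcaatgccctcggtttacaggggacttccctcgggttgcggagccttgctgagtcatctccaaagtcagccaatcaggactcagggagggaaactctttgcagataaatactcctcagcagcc

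**Figure D4:**
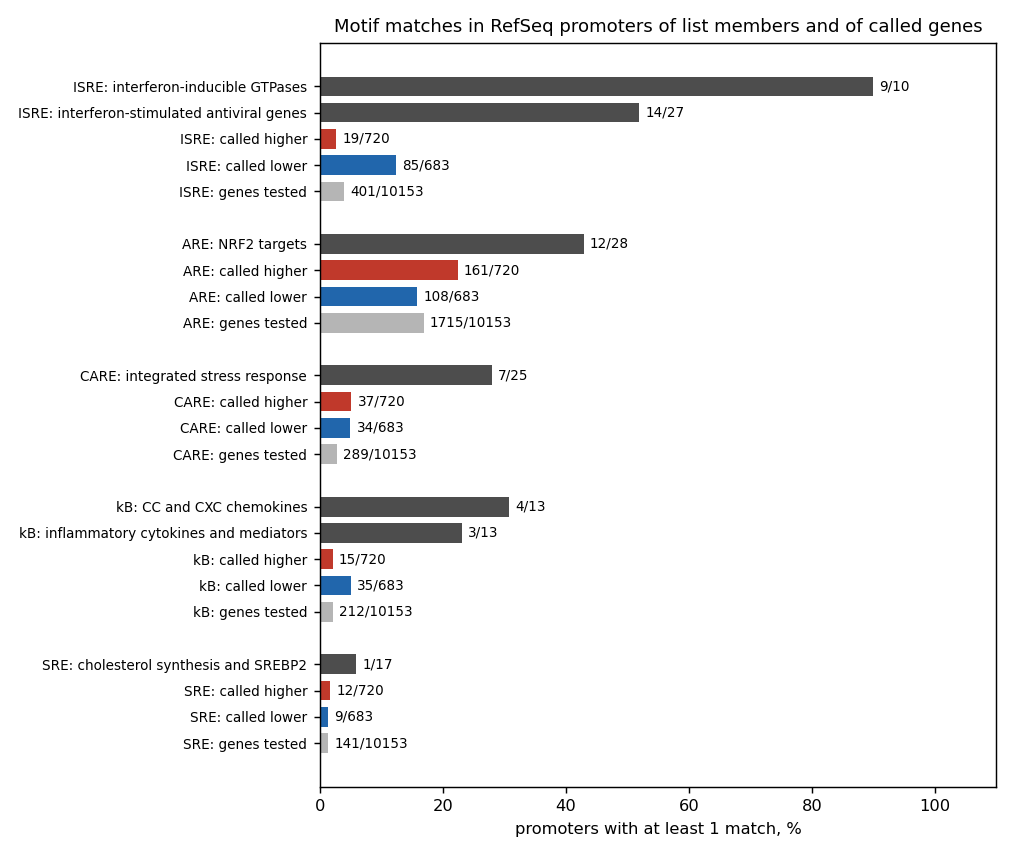
Share of genes with a RefSeq promoter that held at least 1 match to each motif core in any of their promoters (horizontal axis, %, from 0). Bars are for the list named (dark grey), for genes called higher (red) and lower (blue), and for all tested genes (light grey), with genes with a match over genes with a promoter at the end of each bar. The ISRE share is 90% in interferon-inducible GTPases and 3.95% in tested genes, while the SRE share of the cholesterol synthesis list rests on 1 gene of 17.

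Cytokine genes fell with few exceptions. Of 19 tested cytokines and inflammatory mediators 15 fell and 1 rose, with a median of -1.43. Il1b, the main inflammasome-processed cytokine, fell from 4.50, 8.71 and 5.57 RPKM to 0.589, 0.313 and 0.191 RPKM (log2 fold change -3.81 ± 0.38, adjusted p = 7.4e-07). Tnf fell from 88.4, 105 and 86.4 RPKM to 37.5, 26.0 and 31.7 RPKM (log2 fold change -1.56 ± 0.15, adjusted p = 3.7e-07). Acod1, which makes itaconate, fell from 122, 245 and 168 RPKM to 30.6, 43.6 and 28.3 RPKM (log2 fold change -2.35 ± 0.28, adjusted p = 5.7e-06). The acute phase protein Saa3 fell from 30.1, 71.6 and 49.2 RPKM to 1.70, 1.84 and 1.76 RPKM (log2 fold change -4.67 ± 0.54, adjusted p = 4.5e-06), with untreated libraries that differed by more than 2-fold while the treated ones were nearly equal. Nos2, the inducible nitric oxide synthase, stood at 0.831, 1.51 and 1.15 RPKM untreated and at 0.0387, 0 and 0.0109 RPKM with oxLDL 60, so that treated cells were at or close to the limit of detection. The anti-inflammatory Il10 was called lower too (log2 fold change -1.44 ± 0.21, adjusted p = 6.1e-05). The 1 cytokine that rose was Osm, oncostatin M, from 1.46, 1.81 and 1.44 RPKM to 4.60, 4.21 and 4.53 RPKM (log2 fold change 1.45 ± 0.26, adjusted p = 0.00038). Tnf and Il10 were named after their values were seen.

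Chemokine ligands and chemoattractant receptors fell in most of their members. Of 19 tested ligands 13 fell and none rose, with a median of -1.29, and of 13 tested chemoattractant receptors 9 fell and none rose, with a median of -1.31. Cxcl10, which attracts T cells and is induced by interferon, had the largest fall of all genes, from 70.6, 92.8 and 119.8 RPKM to 2.30, 2.30 and 1.74 RPKM, a ratio of means of 44.7 (log2 fold change -5.39 ± 0.23, adjusted p = 9.6e-11). Ccl22 fell from 2.07, 4.86 and 3.02 RPKM to 0.173, 0.269 and 0.323 RPKM (log2 fold change -3.21 ± 0.45, adjusted p = 3.6e-05). Ccl5 fell from 4.61, 12.8 and 10.0 RPKM to 0.903, 1.00 and 1.54 RPKM (log2 fold change -2.80 ± 0.36, adjusted p = 1.2e-05), and in both untreated replicate 1 was the lowest of its group. Those not called were Cxcl14 (log2 fold change 0.45 ± 0.20), Ccl6 (0.00 ± 0.17), Ccl2 (-0.09 ± 0.62), Ccl7 (-0.30 ± 0.78), Ccl12 (-0.84 ± 0.45) and Ccl8 (-0.89 ± 0.47). Of these Ccl2, Ccl7 and Ccl12 are ligands of Ccr2. With SEs of 0.45 to 0.78, the lack of a call for Ccl2, Ccl7, Ccl12 and Ccl8 does not show an unchanged level.

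On the receptor side the formyl peptide receptors Fpr1 and Fpr2, which sense bacterial and mitochondrial peptides, had the largest falls. Fpr1 went from 7.11, 9.75 and 9.54 RPKM to 0.377, 0.503 and 0.265 RPKM (log2 fold change -4.22 ± 0.33, adjusted p = 4.4e-08). Fpr2 fell from 8.26, 14.8 and 12.3 RPKM to 0.669, 0.616 and 0.722 RPKM (log2 fold change -3.91 ± 0.38, adjusted p = 6.1e-07). Cx3cr1, the fractalkine receptor and by far the most abundant of the 3, fell from 147, 175 and 163 RPKM to 28.5, 30.9 and 24.0 RPKM (log2 fold change -2.54 ± 0.24, adjusted p = 4.3e-07). Ccr2 itself fell from 7.84, 9.30 and 12.2 RPKM to 2.59, 3.32 and 2.73 RPKM (log2 fold change -1.71 ± 0.22, adjusted p = 1.4e-05), while Ccr1 and Cxcr4 were not called (-0.04 and -0.02). The element bound by NF-kB, with the core GGGNNTTTCC, was found in 4 of 13 chemokine genes with a promoter (30.8%) and 3 of 13 such cytokine genes. The share was 2.09% of tested genes and 5.12% of genes called lower.

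Sensors of microbes fell in part. Of 25 tested pattern recognition receptors and adaptors 12 fell and 2 rose, with a median of -0.30. Cd14, which hands LPS to TLR4, fell from 318, 412 and 347 RPKM to 114, 130.5 and 106 RPKM (log2 fold change -1.61 ± 0.15, adjusted p = 3.6e-07). Tlr2, the receptor for lipopeptides, fell from 143, 193 and 161 RPKM to 51.7, 53.4 and 44.7 RPKM (log2 fold change -1.72 ± 0.09, adjusted p = 8.9e-10). The lectin Clec4e fell from 159, 248 and 200.3 RPKM to 55.9, 70.3 and 49.9 RPKM (log2 fold change -1.78 ± 0.20, adjusted p = 2.4e-06). Tlr4 and its partner Ly96 were not called, with log2 fold changes of 0.10 and 0.00, so that Cd14 was the only called gene of this receptor complex. Of the genes that rose, Tlr13 was under the fold limit without untreated replicate 1 or after rescaling by the median ratio, which left 1 gene higher. Clec4n, the lectin dectin-2, rose from 3.42, 5.81 and 4.44 RPKM to 8.77, 13.0 and 9.19 RPKM (log2 fold change 1.17 ± 0.19, adjusted p = 0.00018). In the inflammasome list 6 of 13 fell and none rose, with a median of -0.48. Nlrp3 fell from 22.1, 26.8 and 21.8 RPKM to 9.48, 9.11 and 8.87 RPKM (log2 fold change -1.35 ± 0.07, adjusted p = 9.0e-10). Mefv, which encodes pyrin, fell from 5.19, 8.25 and 7.66 RPKM to 0.962, 1.84 and 1.10 RPKM (log2 fold change -2.37 ± 0.23, adjusted p = 6.0e-07), while Casp1, Pycard and Nlrc4 were not called.

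The genes that restrain cytokine signalling fell with the cytokines. Of 14 tested feedback inhibitors 13 fell and none rose, with a median of -1.09. Socs3, which blocks JAK kinases at the IL-6 receptor family, fell from 12.3, 19.0 and 11.9 RPKM to 1.23, 0.733 and 0.798 RPKM (log2 fold change -3.82 ± 0.20, adjusted p = 6.6e-10). Nfkbiz, a nuclear partner of NF-kB, fell from 7.56, 10.5 and 9.76 RPKM to 2.23, 2.01 and 2.04 RPKM (log2 fold change -2.09 ± 0.12, adjusted p = 1.4e-09). Irak3, a brake on Toll-like receptor signalling, fell from 13.6, 19.1 and 17.3 RPKM to 5.17, 5.92 and 5.53 RPKM (log2 fold change -1.56 ± 0.12, adjusted p = 5.0e-08). Only the phosphatase gene Dusp1 of this list was not called, at a log2 fold change of 0.46. Immediate early factors were split, with 4 of 19 lower, 2 higher and a median of -0.08. Maff, 1 of those called higher, was not called without treated replicate 1 or 3 or untreated replicate 2 or 3 (adjusted p up to 0.19), which left 1. Fos fell from 57.6, 64.6 and 61.6 RPKM to 21.9, 17.6 and 16.8 RPKM (log2 fold change -1.71 ± 0.09, adjusted p = 5.3e-10). Junb fell from 52.6, 65.7 and 50.2 RPKM to 20.1, 20.0 and 20.1 RPKM (log2 fold change -1.47 ± 0.15, adjusted p = 8.4e-07), whereas Atf3, also a member of the stress response list, rose from 79.1, 117 and 106 RPKM to 189.8, 193 and 181 RPKM (log2 fold change 0.92 ± 0.13, adjusted p = 2.6e-05).

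Antigen presentation and complement genes fell in smaller numbers. Of 19 MHC class I and immunoproteasome genes 7 fell and none rose, with a median of -0.32. Tap1, the peptide transporter, fell from 24.6, 33.5 and 36.5 RPKM to 15.0, 17.9 and 15.9 RPKM (log2 fold change -0.94 ± 0.14, adjusted p = 5.4e-05), while the class I heavy chains H2-K1 and H2-D1 and B2m were not called (-0.20, 0.16 and -0.12). In the class II list 4 of 14 fell and 1 rose, with a median of -0.36, and the latter, Cd86, was under the fold limit without untreated replicate 1, after rescaling or with a pseudocount of 1. The co-stimulator Cd40 fell from 15.2, 20.0 and 17.1 RPKM to 8.20, 7.20 and 6.97 RPKM (log2 fold change -1.21 ± 0.12, adjusted p = 7.9e-07), and the master regulator Ciita was called lower at -1.75. Of 13 complement genes 3 fell and none rose, against 6.78% and 7.13% of all genes tested, and the median was 0.01. The alternative pathway factor Cfb fell from 1.77, 4.17 and 3.18 RPKM to 0.235, 0.258 and 0.272 RPKM (log2 fold change -3.06 ± 0.31, adjusted p = 8.6e-07). The central component C3 fell from 35.4, 53.1 and 47.2 RPKM to 8.43, 9.98 and 8.76 RPKM (log2 fold change -2.29 ± 0.21, adjusted p = 3.1e-07). The third was the receptor C3ar1. The 3 C1q chains were not called, with log2 fold changes of -0.09 to 0.02.

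Prostaglandin genes moved in both directions, with 5 of 16 eicosanoid genes higher, 3 lower and a median of 0.21. Ptges, which makes prostaglandin E2 together with Ptgs2, fell from 14.1, 33.3 and 18.3 RPKM to 1.44, 2.06 and 1.56 RPKM (log2 fold change -3.54 ± 0.38, adjusted p = 2.0e-06). The receptors for that product changed in opposite directions, with Ptger4 falling from 14.0, 18.0 and 18.0 RPKM to 3.99, 3.05 and 3.63 RPKM (log2 fold change -2.20 ± 0.14, adjusted p = 4.4e-09) and Ptger2 rising from 1.67, 2.07 and 1.79 RPKM to 5.09, 5.44 and 4.75 RPKM (log2 fold change 1.42 ± 0.11, adjusted p = 3.3e-08). Both receptors raise cyclic AMP. Among 16 matrix proteases and inhibitors 4 rose and 2 fell, against 7.13% and 6.78% of all genes tested, with a median of -0.14. Mmp9, 1 of the 2 called lower, was not called when any 1 of the 6 libraries was left out (adjusted p of 0.051 to 0.12), and the higher genes numbered 2 without treated replicate 1 or untreated replicate 3. Without treated replicate 2 the list's median was 0.35. Mmp14, a membrane-bound collagenase, fell from 31.2, 48.0 and 37.1 RPKM to 2.27, 1.69 and 1.82 RPKM (log2 fold change -4.25 ± 0.21, adjusted p = 3.5e-10), the third largest fall of the named genes, and Plau, the urokinase, went from 189, 149 and 157 RPKM to 457, 258 and 350.0 RPKM (log2 fold change 1.07 ± 0.35, adjusted p = 0.03). Plau was not called without treated replicate 1 (adjusted p = 0.13) or without any of 3 other libraries.

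Metal handling genes included 8 of 20 members higher and 2 lower, with a median of 0.30. Slc40a1, ferroportin, the iron exporter, rose from 1.59, 1.74 and 2.42 RPKM to 9.14, 8.39 and 9.96 RPKM (log2 fold change 2.22 ± 0.15, adjusted p = 9.7e-09). Slc48a1, which releases haem from the lysosome, rose from 72.3, 89.2 and 79.0 RPKM to 155, 153 and 150.3 RPKM (log2 fold change 0.94 ± 0.08, adjusted p = 1.6e-07). The siderophore binder Lcn2 fell from 4.16, 3.52 and 4.46 RPKM to 1.86, 1.46 and 1.78 RPKM (log2 fold change -1.20 ± 0.20, adjusted p = 0.00017). Of 215 solute carriers 30 rose and 15 fell, with a median of 0.11, against 7.13% and 6.78% of all genes that were higher and lower. The glycine carrier Slc6a9 rose from 0.652, 0.590 and 0.531 RPKM to 3.20, 2.57 and 3.28 RPKM (log2 fold change 2.17 ± 0.17, adjusted p = 6.0e-08). The zwitterion carrier Slc22a4 rose from 4.28, 5.36 and 5.10 RPKM to 16.5, 18.1 and 17.2 RPKM (log2 fold change 1.80 ± 0.11, adjusted p = 2.0e-09), whereas Slc7a2, a carrier of arginine, fell from 6.90, 9.89 and 7.82 RPKM to 2.44, 2.22 and 2.33 RPKM (log2 fold change -1.76 ± 0.10, adjusted p = 2.1e-09). With a pseudocount of 1 the rising carriers numbered 19.

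Among the 10 tested clade B serpins, intracellular protease inhibitors, 6 rose and 2 fell, with a median of 0.82. Serpinb9b rose from 0.350, 0.578 and 0.287 RPKM to 3.88, 3.90 and 3.86 RPKM (log2 fold change 3.02 ± 0.28, adjusted p = 2.9e-07). Serpinb9, the granzyme B inhibitor, rose from 8.00, 9.62 and 9.73 RPKM to 25.4, 27.2 and 25.3 RPKM (a ratio of means of 2.85, adjusted p = 9.0e-10). Serpinb2, plasminogen activator inhibitor type 2, fell from 1.73, 3.03 and 1.98 RPKM to 0.622, 0.0650 and 0.343 RPKM (log2 fold change -2.61 ± 0.43, adjusted p = 0.00017). The groups did not overlap for any of the 10 (40.7% of all genes tested). Several of these genes are close copies, as are members of the Ifit, Gbp, Tgtp, Ifi200, Fpr, H2-Q, Bcl2a1 and Gsta families, so that the share of reads assigned to each copy is uncertain.

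Transcription factors of the macrophage lineage also shifted, with 2 of 13 growth and lineage genes higher, 4 lower and a median of -0.34. Cebpa rose from 13.9, 17.9 and 14.6 RPKM to 37.8, 37.5 and 35.6 RPKM (log2 fold change 1.26 ± 0.10, adjusted p = 8.1e-08). Id2, an inhibitor of helix-loop-helix factors, rose from 76.2, 89.8 and 86.0 RPKM to 234, 195 and 214 RPKM (log2 fold change 1.35 ± 0.17, adjusted p = 1.1e-05). Maf fell from 11.3, 13.7 and 16.9 RPKM to 4.58, 6.20 and 5.82 RPKM (log2 fold change -1.31 ± 0.26, adjusted p = 0.001), and Spi1, which encodes PU.1, and Runx1 were called lower at -0.64 and -0.54. Among 13 genes of alternative activation 2 rose and none fell, with a median of -0.10, or 1 without treated replicate 1, led by the lectin Clec10a, from 1.72, 2.07 and 1.92 RPKM to 3.71, 5.78 and 4.17 RPKM (log2 fold change 1.20 ± 0.15, adjusted p = 1.0e-05), while Mrc1, Arg1 and Chil3 were not called (0.01, -0.10 and -0.12). Of 18 efferocytosis genes 2 rose and 1 fell, against 7.13% and 6.78% of all genes tested, with a median of 0.02. Only 1 rose without untreated replicate 1 or treated replicate 2, where Mertk was lost. The bridging molecule Gas6 rose from 53.3, 69.1 and 67.5 RPKM to 96.8, 121 and 102 RPKM (log2 fold change 0.75 ± 0.11, adjusted p = 4.2e-05). Among 9 TREM receptors and partners 2 rose and 1 fell, with a median of 0.20, and those that rose were Trem2 and Treml4 (log2 fold change 1.65 ± 0.16, adjusted p = 5.3e-07).

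Other large rises fell outside these groups. Cdcp1, a membrane glycoprotein that Src kinases phosphorylate, rose from 0.160, 0.156 and 0.310 RPKM to 2.16, 1.71 and 2.02 RPKM (log2 fold change 2.77 ± 0.20, adjusted p = 1.9e-08). Ednrb, an endothelin receptor, rose from 0.730, 1.26 and 1.05 RPKM to 4.41, 6.66 and 4.71 RPKM (log2 fold change 2.27 ± 0.29, adjusted p = 1.5e-05). Hyal1, a lysosomal hyaluronidase, rose from 1.4, 1.82 and 1.16 RPKM to 6.54, 8.15 and 6.81 RPKM (log2 fold change 2.23 ± 0.15, adjusted p = 5.6e-09). Layn, a hyaluronan-binding lectin, rose from 1.4, 1.89 and 1.69 RPKM to 9.70, 7.70 and 8.21 RPKM (log2 fold change 2.30 ± 0.26, adjusted p = 2.9e-06), so that a receptor for hyaluronan and an enzyme that breaks it down rose together. The RNA-binding protein gene Nanos1, the phosphatase gene Dusp13 and the unnamed transcript A530064D06Rik completed the 12 genes named by the size of their rise, with log2 fold changes of 2.36 ± 0.21, 2.38 ± 0.22 and 2.31 ± 0.09.

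Housekeeping and growth genes were largely outside the calls, as were most genes tested, of which 7.13% rose and 6.78% fell. No member of 81 oxidative phosphorylation subunits or 79 cytosolic ribosomal proteins was called in either direction, with medians of 0.15 and 0.14 against 0.06 for all genes. Rpl41 stood at 903, 1148 and 1088 RPKM and 1222, 1297 and 1201 RPKM, and Atp5b at 315, 333 and 357 RPKM and 371, 336 and 356 RPKM. Fitted to the 6 libraries of the groups alone, 1 ribosomal gene was called higher. Of 35 proteasome subunits 1 rose and 1 fell, with a median of 0.19, and 2 rose without treated replicate 2, untreated replicate 2 or untreated replicate 3. Of 28 cell cycle genes 1 rose, Pcna, which also serves DNA repair, and 1 fell, Ccnd1, cyclin D1, with log2 fold changes of 0.54 ± 0.11 and -0.72 ± 0.20, and the list median was -0.00042. Pcna was not called without treated replicate 1, and Ccnd1 was not called without treated replicate 2 or untreated replicate 1. Glycolysis and hypoxia genes had 5 of 29 higher and none lower with a median of 0.19, or 2 higher and 1 lower without untreated replicate 1 and 3 higher without treated replicate 1. The hexokinase Hk3 rose from 44.9, 57.1 and 51.0 RPKM to 100.4, 102 and 100.3 RPKM (log2 fold change 0.99 ± 0.11, adjusted p = 1.8e-06). Of 23 apoptosis and p53 genes 2 rose and 5 fell, with a median of -0.05, and 3 fell without treated replicate 1, untreated replicate 2 or untreated replicate 3. The death receptor Fas fell from 9.11, 15.2 and 12.8 RPKM to 3.76, 5.45 and 3.47 RPKM (log2 fold change -1.52 ± 0.26, adjusted p = 0.00027), and the survival gene Bcl2l1 rose from 22.1, 21.6 and 20.6 RPKM to 40.1, 34.5 and 38.7 RPKM (log2 fold change 0.81 ± 0.15, adjusted p = 0.00043).

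Stress and interferon genes also differed between the amounts of oxLDL. Between oxLDL 60 and oxLDL 10 a total of 829 genes (6.46%) were called, 374 higher (2.91%) and 455 lower (3.54%) at the higher amount. Of the 34 NRF2 targets 23 were higher at oxLDL 60 than at oxLDL 10, and of the 27 stress response genes 14 were. Srxn1 stood at 156, 143 and 138 RPKM with oxLDL 10, between the untreated and the oxLDL 60 levels (oxLDL 60 over oxLDL 10, log2 1.64 ± 0.11, adjusted p = 6.8e-08). For Trib3 the oxLDL 10 libraries held 3.55, 2.15 and 3.48 RPKM, with replicate 2 inside the untreated range. Of the 38 antiviral genes 32 were lower at oxLDL 60 than at oxLDL 10, as were all 15 of the GTPases that fell.

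Fewer genes of sterol synthesis differed between the amounts. Only 2 of the 24 SREBP2 pathway genes, Idi1 among them, were lower at oxLDL 60 than at oxLDL 10, and none was higher. Cyp51, which removes a methyl group from lanosterol, held 8.25, 5.99 and 9.24 RPKM in untreated cells. It held 3.17, 2.91 and 2.93 RPKM at oxLDL 10 and 3.42, 3.13 and 3.00 RPKM at oxLDL 60, so that treated libraries overlapped, and the difference between the amounts was 0.08 on the log2 scale (adjusted p = 0.82). Abca1 stood at 22.1, 34.6 and 26.1 RPKM with oxLDL 10, and the log2 difference from oxLDL 60 was 0.14 ± 0.32 (adjusted p = 0.86). A p above the threshold does not show that the amounts act alike. Median log2 fold changes over untreated cells were -0.60 at oxLDL 10 and -0.70 at oxLDL 60 for the SREBP2 list, 0.31 and 1.11 for NRF2 targets, and -0.40 and -1.31 for chemoattractant receptors. The medians share the untreated libraries.

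**Figure D5:**
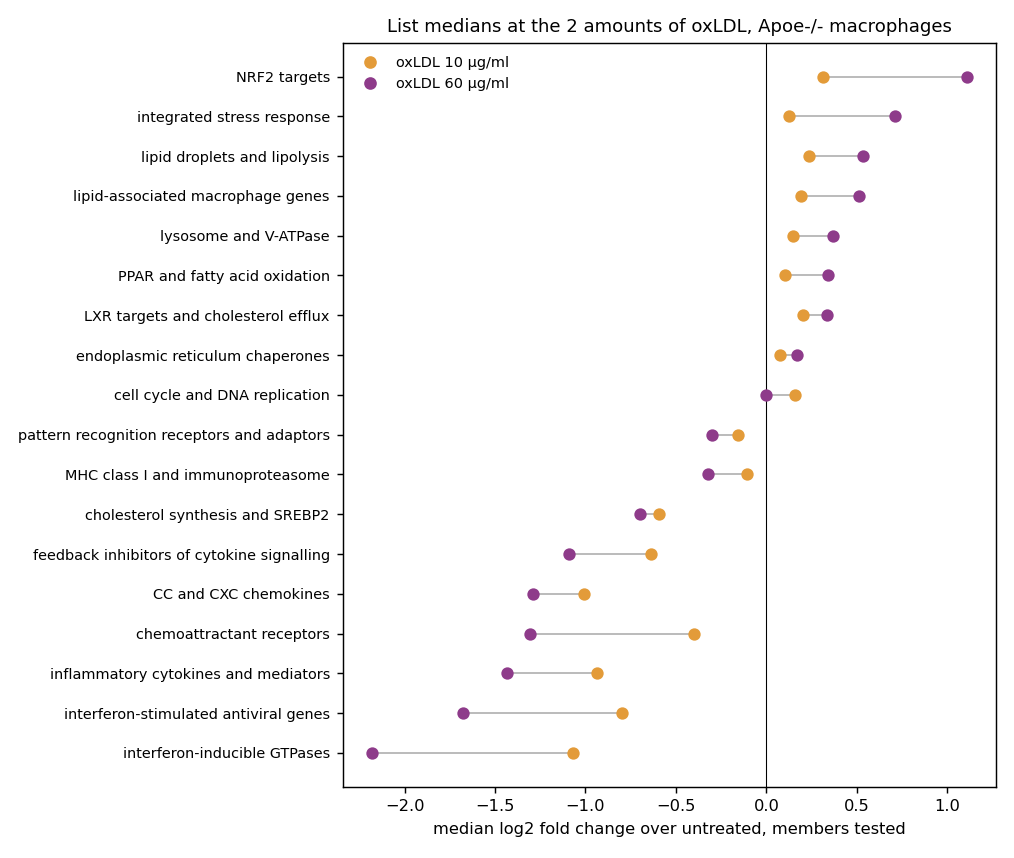
Median log2 fold change over untreated Apoe-/- cells (horizontal axis) of the tested members of 18 gene lists at oxLDL 10 (orange) and oxLDL 60 (purple). The 2 points lie close together for cholesterol synthesis (-0.60 and -0.70) and far apart for interferon-inducible GTPases (-1.07 and -2.18), and all medians are taken against the same untreated libraries.

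The same treatment of DKO cells, which also lack Treml4, called 625 genes higher (4.87%) and 939 lower (7.31%) among the 12838. In DKO cells 24 NRF2 targets, 12 stress response genes and 7 droplet genes were higher, against 26, 17 and 9 in Apoe-/- cells. Lower there were 36 antiviral genes, 15 GTPases and 15 SREBP2 pathway genes, against 35, 15 and 15. The difference between the genotypes was tested directly by the interaction, which called 2 genes (0.0156% of those tested), or 5 with the replicate number as a block, while 1256 had an unadjusted p under 0.05. They were Treml4 itself, which is removed in DKO cells, and Dnajb3, a co-chaperone gene with no group mean above 0.128 RPKM in the groups compared. Apart from Treml4 in the TREM list, no member of the 41 lists was called by that test.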

How the data were processed

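Total RNA of 18 BMDM samples was sequenced as stranded, paired-end libraries, and the submitters' processing notes name STAR and the build mm10. The authors deposited 1 table of RPKM values per gene and library. RPKM is scaled by library and transcript length, and a count test was therefore not used. The table held 1451 values above 0 and under 1e-05, over 305 genes of which 20 were tested, and 24 symbols altered to dates, and the depth was recovered from the steps of low values of 637 genes with 1 transcript, for which 91.0% of 18166 low values lay within 0.05 of a whole read.

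Genes with at least 0.1 RPKM in 3 or more of the 18 libraries were kept and log2(RPKM + 0.1) was fitted with limma 3.58.1 in R 4.3.3 (6 group means over all 18 libraries, eBayes with a trend, Benjamini-Hochberg adjustment over all 12838 genes, two-sided). A call required an adjusted p under 0.05 and a fold change of at least 1.4. The fit was tested on simulated data. The ± of a fold change is its SE and the ± of a level its SD. The p-values rest on the spread between the 3 libraries within a group, pooled over the 6 groups and moderated by eBayes. The main fit does not pair libraries by replicate number, so differences between replicates are part of that spread.

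Replicate numbers may pair libraries, which the labels do not state. Same-numbered untreated and oxLDL 60 libraries deviated together over 12838 genes (r = 0.21 to 0.69, other numbers -0.61 to 0.25) and share their sex markers. Replicates 1 and 2 each deviated most with their own number (r = 0.54 and 0.69). Treated replicate 3 had r = 0.21 with untreated replicate 3 and 0.25 with untreated replicate 1. The sex markers set Apoe-/- replicate 2 apart but do not separate replicates 1 and 3. Whether 1 animal per number within a genotype gave all conditions is therefore open for replicate 3. The numbers do not pair across genotypes.

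The comparison, its members and the 41 gene lists, which share some members, were chosen with earlier results of these data known. Named genes are the 12 largest rises and falls among called genes at 1 RPKM or more whose groups do not overlap, by the same conditions the 4 largest changes of each list and 2 against its direction, markers, Treml4, Apoe and Cd36, and the 2 most abundant genes of lists with under 2 calls. A gene given only with a log2 fold change or as called is a list member outside that rule, and 49 further genes and 7 families were chosen after their values were seen. Alternatives covered the pseudocount, the filter, scaling, the libraries fitted, the trend, the fold limit, the replicate block and leaving out each library. Some list members are not reported here. Promoters came from RefSeq (GRCm38.p6). Motifs and figures used Python 3.11.15, pandas 2.3.3 and matplotlib 3.10.9.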

Additional observations from a re-analysis of the deposited data

Results flagged for a closer look

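The response to oxLDL 60 differed between the genotypes, by the interaction test, for 2 genes. For Treml4 the log2 fold change in DKO cells minus that in Apoe-/- cells was -1.70 ± 0.22 (limma, adjusted p = 0.012), with means of 2.65 and 8.27 RPKM in untreated and treated Apoe-/- cells and 0.0039 and 0 RPKM in DKO cells, from which the gene is removed. For Dnajb3 the difference was 1.70 ± 0.26 (adjusted p = 0.031), with means of 0.112 and 0 RPKM in Apoe-/- cells and 0.0503 and 0.128 RPKM in DKO cells, all near the filter on low levels.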

How the results depend on the processing

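The count of 1786 genes between oxLDL 60 and untreated cells was 1958 (1009 higher and 949 lower) with the replicate number as a block, 1792 after rescaling by the median ratio, and 1715 to 1791 when 1 of the 6 libraries was left out (752 to 1024 higher, 767 to 969 lower). Without a fold limit it was 3873 (2370 higher and 1503 lower), at a fold change of at least 2 it was 640 (241 and 399), and with a pseudocount of 1 the higher genes numbered 609. Between the amounts of oxLDL, 829 calls became 1731 without a fold limit and 223 at 2-fold, and 715 to 819 without single libraries. In DKO cells 1564 calls became 3319 (1163 higher and 2156 lower) without a limit and 550 (180 and 370) at 2-fold, with 414 higher at a pseudocount of 1 and 1399 to 1595 without single libraries. The 2 interaction calls became 0 with a pseudocount of 0.01, 1 with a pseudocount of 1, 1 among genes with a mean of at least 1 RPKM, 0 when only the groups compared were fitted, 5 with the replicate block, 1 without replicate 2 of Apoe-/- cells and 0 to 2 without single libraries. The cause of these shifts was not tested. Of the named genes 194 were called, 167 of them under every alternative other than the fold limits, and Calr, not called, changed sign (-0.0053) after rescaling. In the lists 67 of 1230 counts moved by over 1.5 times and 115 of 615 medians by more than their SD. The lower cytokines numbered 9 and the lower scavenger receptors 3 among genes with a mean of at least 1 RPKM. With 3 libraries per group, genes near 0.1 RPKM rest on few reads.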

Other observations

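Families that were put together after their values were seen and therefore have no test as groups are described here. Of 8 tested Schlafen genes, which restrain growth and viral translation, 7 fell, with a median of -1.53, and Slfn1 fell from 4.98, 4.97 and 10.5 RPKM to 0.721, 0.504 and 0.754 RPKM (log2 fold change -3.11 ± 0.26, adjusted p = 8.2e-08). Of 12 tested PYHIN genes of the Ifi200 cluster, a family of DNA sensors and nuclear proteins, 11 fell, with a median of -2.33. Ifi205 fell from 5.73, 10.4 and 9.35 RPKM to 0.340, 0.596 and 0.402 RPKM (log2 fold change -3.96 ± 0.29, adjusted p = 2.4e-08). The DNA sensor Aim2 was the member not called, at -0.22, and the close sequence of these genes leaves the split of reads among them uncertain.

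Enzymes that make and remove reactive oxygen were called in both directions. Cybb, the catalytic subunit of the phagocyte NADPH oxidase, fell from 201, 288 and 267 RPKM to 69.4, 89.3 and 71.9 RPKM (log2 fold change -1.70 ± 0.16, adjusted p = 3.8e-07). Of its other subunits, Cyba, Ncf1 and Ncf4 were not called. The mitochondrial superoxide dismutase Sod2, which NF-kB is known to induce, fell from 76.5, 114 and 95.0 RPKM to 29.3, 33.5 and 28.9 RPKM (log2 fold change -1.62 ± 0.17, adjusted p = 1.9e-06). Of 9 tested peroxiredoxins and superoxide dismutases 2 rose (Prdx1 and Prdx6), 2 fell (Prdx5 and Sod2) and 5 were not called. Of 21 tested glutathione transferases 9 rose and 1, Gstt1, fell, with a median of 0.51.

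Receptors for metabolites, protons and adenosine fell in 7 of 9 tested members. Gpr84, a receptor for medium-chain fatty acids, fell from 116, 136 and 103 RPKM to 21.9, 14.5 and 17.7 RPKM (log2 fold change -2.72 ± 0.13, adjusted p = 3.1e-10). Hcar2, the niacin receptor, fell from 3.38, 3.28 and 2.63 RPKM to 0.426, 0.399 and 0.360 RPKM (log2 fold change -2.69 ± 0.22, adjusted p = 9.7e-08). The proton sensor Gpr65 was called lower. Among 19 tested integrins 2 rose and 5 fell, against 7.13% and 6.78% of all genes tested. Itga4, a subunit of the receptor for VCAM-1, fell from 9.70, 11.7 and 14.4 RPKM to 3.36, 3.50 and 4.02 RPKM (log2 fold change -1.68 ± 0.15, adjusted p = 1.9e-07).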
